A study of Rattus norvegicus with 9 samples.

Results

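Genes of transforming growth factor β (TGF-β) signalling were followed in cultured rat chondrocytes, the cells that build and maintain cartilage matrix. The 10 genes are Tgfb1, Tgfb2 and Tgfb3 (ligands), Tgfbr1, Tgfbr2 and Tgfbr3 (receptors), Smad7 (an intracellular inhibitor), Tgfbi and Ctgf (targets) and Ltbp2 (a matrix protein of the latent TGF-β binding protein family). They were taken by gene symbol, and all 10 were found among the 17588 genes of the deposited table, with Ctgf standing for the gene now named Ccn2. All 10 passed the filter on low values, FPKM of at least 1 in at least 3 libraries, which left 11732 genes to test.

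The 9 libraries are from wild-type primary chondrocytes, 3 in each of 3 groups. Control cells were kept in routine culture without interleukin-1β (IL-1β, an inflammatory cytokine). The IL-1β group received the cytokine in the same culture. The co-culture group was stimulated with IL-1β and then shared a transwell with dermal fibroblasts. The fibroblasts sat in the upper chamber and the chondrocytes in the lower chamber. No group with IL-1β in a transwell without fibroblasts is among the 9 libraries, so culture format and fibroblasts cannot be told apart. The sources used here do not give the sex, age or strain of the rats, the dose of IL-1β or any duration. They also do not say whether replicates came from separate animals or cultures, so each p-value reflects library-to-library spread that could be technical.

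Levels are FPKM, fragments scaled to transcript length and library total. Comparison between genes is rough, since the aligner and annotation are not given. A value with ± is a group mean and SD (n = 3). The FPKM of all genes added up to 771058 to 782435 in control, 796262 to 832248 in IL-1β and 809839 to 811665 in co-culture libraries, and the depth in reads is unknown. All 10 chondrocyte markers checked, Col2a1, Acan and Sox9 among them, were above 1 FPKM in at least 3 libraries. Their summed level was 1935 to 2020 FPKM in control, 445 to 466 in IL-1β and 627 to 683 in co-culture libraries. The sum of 8 skeletal muscle markers was 184 to 189.8, 401 to 423 and 391 to 439, and that of 10 dermal fibroblast markers was 3721 to 3852, 2760 to 2780 and 2438 to 2514. That list went both ways with IL-1β, since its most abundant members Col1a1 and Col3a1 averaged 1973 and 1312 FPKM in control against 877 and 431, while Dcn and Lum averaged 32.4 and 87.8 against 324 and 765. Thy1 and Pdgfra, also on that list, shifted less, averaging 323 and 53.1 FPKM in control against 313 and 59.2 with IL-1β. Of the fibroblast markers, Dpp4, Pi16, Cd34 and Clec3b, the 4 below the filter, averaged at most 1.10 FPKM in any group. Macrophage markers summed to at most 23.2, endothelial markers to 1.10 and keratinocyte markers to 2.35 FPKM in any library. The part of these shifts in the results below was not tested, and fewer cells of a type cannot be told apart from less RNA per cell.

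TGF-β is secreted as a latent complex in which the propeptide stays bound to the ligand and, in many tissues, to a latent TGF-β binding protein in the matrix. Once freed, the ligand binds the type II receptor (Tgfbr2), which phosphorylates the type I receptor (Tgfbr1), and this phosphorylates SMAD2 and SMAD3, which enter the nucleus with SMAD4. In cartilage the pathway is known for sustaining matrix synthesis and restraining hypertrophic maturation, and IL-1β is known for opposing matrix synthesis.

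With IL-1β, 7 of the 10 genes passed the test, where 46.7% of all tested genes did (limma, adjusted p under 0.05). The 4 that fell were Tgfb2, Tgfb3, Tgfbi and Ctgf, and the 3 that rose were Tgfbr2, Tgfbr3 and Ltbp2. Over all tested genes 20.2% fell and 26.5% rose. That split followed the scaling, with 2249 higher and 3188 lower when libraries were rescaled to a common sum, whereas the 3 and 4 calls among the 10 genes were the same in number under every alternative tried. With co-culture against IL-1β alone, 5 of the 10 passed, where 22.0% of all tested genes did. Tgfb2, Tgfb3, Tgfbi and Ctgf rose and Ltbp2 fell, against 11.9% of all tested genes higher and 10.1% lower. With median-of-ratios scaling the all-gene split was 1156 higher and 1294 lower. Tgfb2, Tgfb3, Tgfbi, Ctgf and Ltbp2 had each changed in the opposite direction with IL-1β against control. Both comparisons use the same IL-1β libraries, so such a reversal is not separate evidence. The share of all tested genes that reversed was not counted. The summed chondrocyte markers were likewise highest in control, lowest with IL-1β and between in co-culture. Co-culture libraries still differed from control in 7 of the 10 genes, 3 higher and 4 lower, against 33.9% of all tested genes called, 21.8% higher and 12.2% lower. Here too the all-gene split followed the scaling, with 1541 higher and 2009 lower for a common sum and 1641 and 2076 with quantile normalization. These are the same 7 genes, and the same directions, as for IL-1β against control, but the comparisons share libraries and are not separate evidence. The median log2 change of the 10 genes was 0.02 with IL-1β, 0.02 with co-culture against IL-1β and 0.0026 with co-culture against control. Over all tested genes it was 0.02, 0.02 and 0.04.

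**Figure D1:**
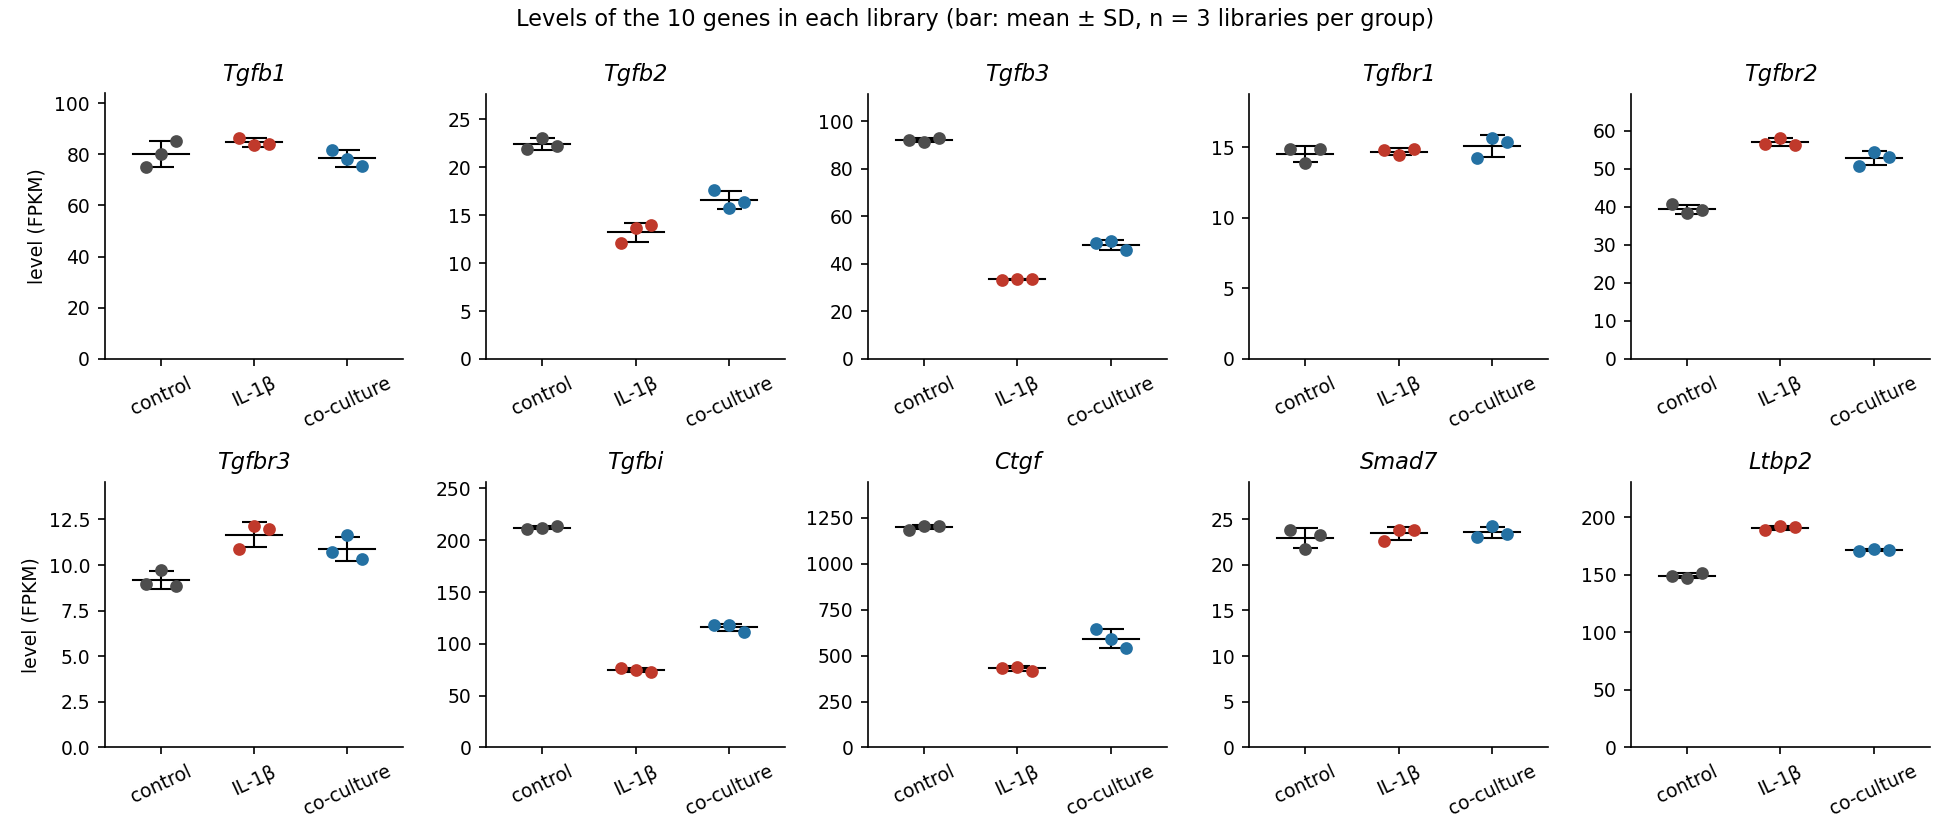
Level in FPKM (linear axes from 0) of each of the 10 genes in the 9 libraries. Points are libraries, and bars give the mean ± SD of 3 libraries per group. Tgfb3, Tgfbi and Ctgf show the deepest drop with IL-1β, with co-culture libraries lying between the other groups, while Tgfb1, Tgfbr1 and Smad7 lie within a narrow band across all 9 libraries.

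The 3 ligands did not change alike. Tgfb3, which is expressed in developing cartilage, had the highest FPKM of the 3 ligand genes in control cells. Tgfb3 stood at 91.9, 91.4 and 93.0 FPKM in the control libraries, 33.2, 33.5 and 33.7 with IL-1β and 48.8, 49.6 and 45.7 in co-culture. The groups did not overlap, with control highest and IL-1β lowest. The mean fell 2.75-fold with IL-1β (log2 change -1.43, SE 0.03, adjusted p = 3.8e-10) and rose 1.43-fold with co-culture (0.51, SE 0.03, adjusted p = 5.34e-06). It stayed 1.92-fold below control (-0.93, adjusted p = 2.27e-08).

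Tgfb2, the ligand that depends most on betaglycan for receptor binding, was the least abundant of the 3. It stood at 21.9, 23.1 and 22.2 FPKM in control, 12.1, 13.7 and 14.0 with IL-1β and 17.6, 15.7 and 16.4 in co-culture libraries. The groups again did not overlap and kept the same order. The mean fell 1.69-fold with IL-1β (log2 change -0.72, SE 0.06, adjusted p = 4.92e-06) and rose 1.25-fold with co-culture (0.30, SE 0.06, adjusted p = 0.00525).

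Tgfb1, the ligand most widely expressed in adult tissue, did not pass in any of the 3 comparisons. Its libraries read 75.1, 80.2 and 85.3 FPKM in control, 86.5, 83.5 and 84.0 with IL-1β and 81.8, 78.1 and 75.3 in co-culture. The control libraries spanned much of this range and overlapped both other groups, whereas every co-culture library was below every IL-1β library. The log2 change was 0.08 with IL-1β (95% interval -0.03 to 0.18, adjusted p = 0.2). With co-culture against IL-1β it was -0.11 (95% interval -0.215 to -0.00467, adjusted p = 0.128).

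The make-up of the ligand pool therefore differed between groups. The 3 ligands summed to 195 ± 5.80 FPKM in control, 131 ± 0.601 with IL-1β and 143 ± 5.46 in co-culture. Tgfb3 made up 47.3% ± 1.18 of that sum in control, 25.5% ± 0.253 with IL-1β and 33.6% ± 0.865 in co-culture (SD, n = 3). Tgfb1 made up 41.2% ± 1.38, 64.4% ± 1.03 and 54.8% ± 0.37. Tgfb2 stayed between 9.18% and 11.9% in all libraries. In each control library Tgfb3 was above Tgfb1, and in each library of the other groups Tgfb1 was above Tgfb3. These shares are descriptions of transcript levels, without a test, and say nothing of secreted or active protein.

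**Figure D2:**
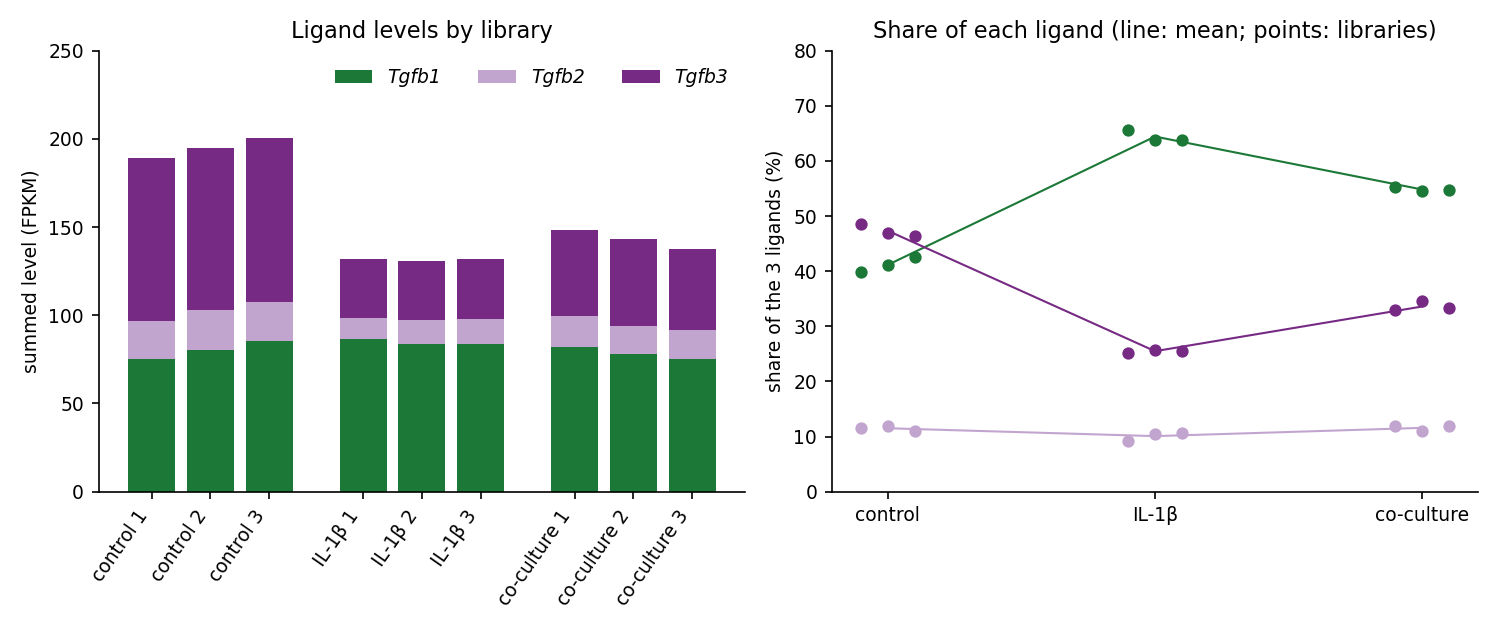
Left, stacked bars of the FPKM of Tgfb1, Tgfb2 and Tgfb3 in each library. Right, the share (%) of each ligand in that sum, with points for libraries and lines through group means. Tgfb3 leads in control (47.3%) and Tgfb1 in the IL-1β (64.4%) and co-culture groups (54.8%).

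Of the receptors, Tgfbr2, which encodes the ligand-binding type II kinase, rose with IL-1β. It stood at 40.7, 38.3 and 39.1 FPKM in control, 56.6, 58.1 and 56.3 with IL-1β and 50.8, 54.4 and 53.0 in co-culture. The 3 groups did not overlap, and control was lowest. The mean was 1.45-fold higher with IL-1β (log2 change 0.52, SE 0.04, adjusted p = 1.16e-06) and 1.34-fold higher in co-culture than in control (0.41, adjusted p = 1.38e-05). Between co-culture and IL-1β the log2 change was -0.11 (95% interval -0.19 to -0.03), which just missed the threshold (adjusted p = 0.0512). It passed in 3 of 15 alternatives (adjusted p = 0.0256 to 0.0474), namely the filter on mean FPKM, median-of-ratios scaling and without co-culture replicate 2 (adjusted p = 0.0474), and reached adjusted p = 0.147 in the others.

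Tgfbr1, the type I kinase that carries the signal to SMAD2 and SMAD3, lay between 13.9 and 15.7 FPKM in all 9 libraries, with all groups overlapping. Its log2 change was 0.02 with IL-1β (95% interval -0.09 to 0.12, adjusted p = 0.812) and 0.03 with co-culture against IL-1β (-0.07 to 0.14, adjusted p = 0.646). Intervals of this width leave room for changes of about 0.1 on the log2 scale in either direction, and the sign of the first turned under other scalings. Of the summed level of Tgfbr1 and Tgfbr2, Tgfbr2 made up 73.0% ± 0.496 in control, 79.5% ± 0.549 with IL-1β and 77.8% ± 0.314 in co-culture.

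Tgfbr3 encodes betaglycan, a co-receptor that presents ligand to the type II receptor. It was the lowest of the 10 genes, at 8.96, 9.72 and 8.86 FPKM in control, 10.9, 12.1 and 12.0 with IL-1β and 10.7, 11.6 and 10.4 in co-culture. Control libraries lay below all others, and the other groups overlapped. It rose 1.27-fold with IL-1β (log2 change 0.32, SE 0.06, adjusted p = 0.0017). With co-culture against IL-1β the log2 change was -0.09 (95% interval -0.22 to 0.04, adjusted p = 0.319). Co-culture exceeded control by 0.23 (adjusted p = 0.0163), a call that ended after rescaling every library to the same total, and also without control replicate 1, control replicate 3 or co-culture replicate 2 (adjusted p = 0.0541 to 0.084).

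Both classical targets were lowest with IL-1β, and their co-culture libraries lay between IL-1β and control. Ctgf encodes CCN2 (connective tissue growth factor), a secreted matricellular protein induced by TGF-β and by the Hippo pathway effectors YAP and TEAD. It was by far the most abundant of the 10 genes and ranked between 123 and 125 among all genes in the control libraries. Its libraries read 1186, 1205 and 1205 FPKM in control, 433, 441 and 418 with IL-1β and 645, 590.1 and 544 in co-culture. The groups did not overlap, and the co-culture libraries were the most spread. The mean fell 2.78-fold with IL-1β (log2 change -1.48, SE 0.05, adjusted p = 8.36e-09), rose 1.38-fold with co-culture (0.46, adjusted p = 0.00021) and stayed 2.02-fold below control (-1.02, adjusted p = 3.02e-07).

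Tgfbi encodes an extracellular matrix protein (TGF-β-induced protein) that binds collagens and integrins. It stood at 211, 212 and 213 FPKM in control, 77.0, 74.8 and 72.5 with IL-1β and 118, 118 and 112 in co-culture. Again no library of a group reached another group's range. The mean fell 2.84-fold with IL-1β (log2 change -1.49, SE 0.03, adjusted p = 2.18e-10) and rose 1.55-fold with co-culture (0.63, SE 0.03, adjusted p = 1.32e-06), which was the largest rise of the 10 genes in that comparison. It remained 1.83-fold below control (-0.87, adjusted p = 2.42e-08).

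Smad7, an inhibitory SMAD that blocks the type I receptor and is itself a rapid TGF-β target in many cells, lay between 21.8 and 24.2 FPKM in all 9 libraries. All groups overlapped. Its log2 change was 0.03 with IL-1β (95% interval -0.06 to 0.12, adjusted p = 0.601), 0.0068 with co-culture against IL-1β (-0.09 to 0.10, adjusted p = 0.933) and 0.04 with co-culture against control (-0.06 to 0.13, adjusted p = 0.55). The sign of each turned under at least 1 other scaling.

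Ltbp2 differs from its relatives in that its product binds fibrillin microfibrils but not latent TGF-β itself. It moved opposite to the falling genes, from 149, 147 and 151 FPKM in control to 189, 192 and 192 with IL-1β and 171, 172 and 171 in co-culture. The groups did not overlap. The change was 0.35 with IL-1β (log2, SE 0.02, adjusted p = 7.75e-07) and -0.15 with co-culture against IL-1β (SE 0.02, adjusted p = 0.00107), and co-culture stayed 0.20 above control (adjusted p = 0.000105).

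**Figure D3:**
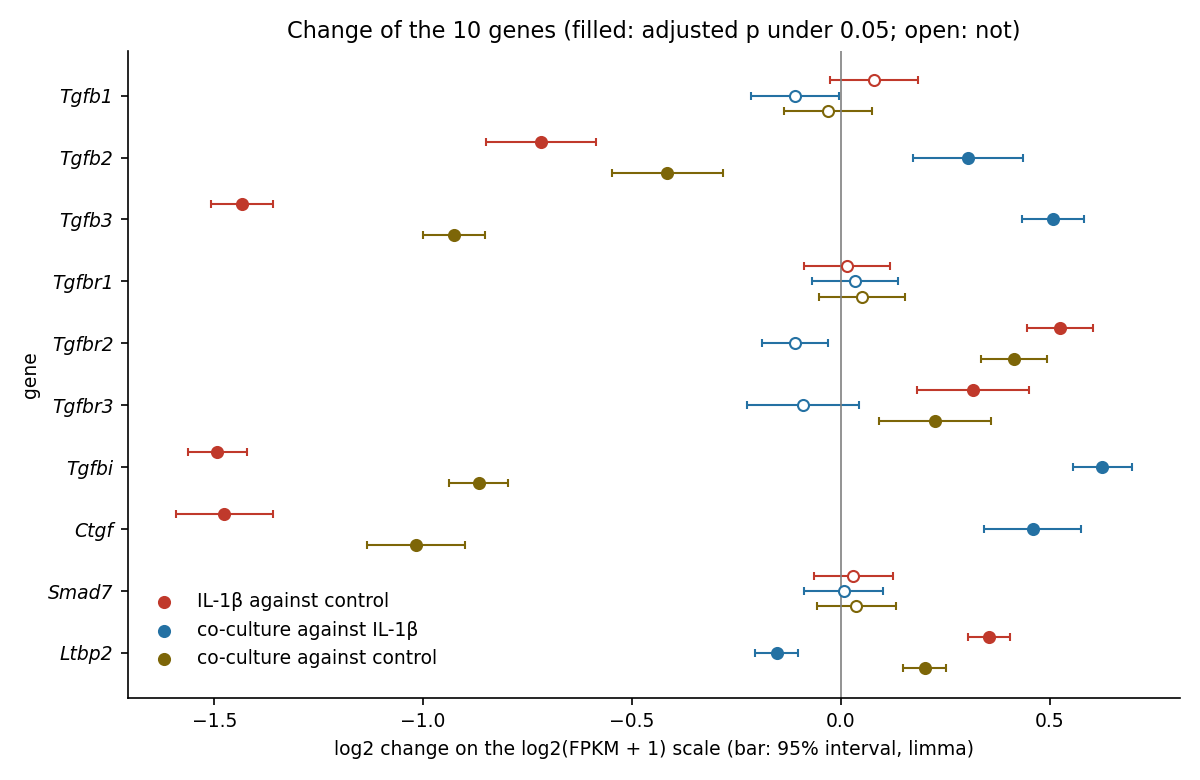
Log2 change of the 10 genes on the log2(FPKM + 1) scale in the 3 comparisons, with 95% intervals from limma. Filled points passed an adjusted p of 0.05. Tgfb2, Tgfb3, Tgfbi and Ctgf lie left of 0 with IL-1β and right of 0 with co-culture against IL-1β, and Tgfb1, Tgfbr1 and Smad7 are open in all 3 comparisons.

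By level, the order in control cells was Ctgf, Tgfbi, Ltbp2, Tgfb3, Tgfb1, Tgfbr2, Smad7, Tgfb2, Tgfbr1 and Tgfbr3. Neighbours did not overlap in their libraries, except Smad7 and Tgfb2. With IL-1β, Ltbp2 and Tgfb1 came before Tgfbi, Tgfbr2 came before Tgfb3, and Tgfbr1 came before Tgfb2, and here only Tgfb2 and Tgfbr3 overlapped. In co-culture Tgfbi was again above Tgfb1 and Tgfb2 above Tgfbr1, while Tgfb3 stayed below Tgfbr2. No neighbours overlapped in that group.

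The promoters of 4 of the genes that moved are shown. Of these, 3 were lower with IL-1β and higher with co-culture than with IL-1β alone, while Ltbp2 went the other way. Tgfb2 moved like those 3 but its promoter is not shown. The sequences are the 250 bases before the RefSeq transcription start on build GRCr8, on the coding strand, which reads like the RNA, 5′ to 3′. All 10 genes had a RefSeq entry. Capitals mark matches, on either strand, to the SMAD box CAGAC, the SMAD palindrome GTCTAGAC, the AP-1 motif TGANTCA, the TEAD motif GGAATG and the TATA motif TATAAA. Ctgf lies at chr1:22624615-22624864, Tgfbi at chr17:7990114-7990363, Tgfb3 at chr6:111456947-111457196 and Ltbp2 at chr6:110257299-110257548, all on the minus strand.
Ctgf: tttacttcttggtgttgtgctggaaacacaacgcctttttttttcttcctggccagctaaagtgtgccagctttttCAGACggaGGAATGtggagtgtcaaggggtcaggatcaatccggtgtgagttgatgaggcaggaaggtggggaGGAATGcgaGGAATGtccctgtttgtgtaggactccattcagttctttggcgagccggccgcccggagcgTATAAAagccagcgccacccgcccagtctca
Tgfbi: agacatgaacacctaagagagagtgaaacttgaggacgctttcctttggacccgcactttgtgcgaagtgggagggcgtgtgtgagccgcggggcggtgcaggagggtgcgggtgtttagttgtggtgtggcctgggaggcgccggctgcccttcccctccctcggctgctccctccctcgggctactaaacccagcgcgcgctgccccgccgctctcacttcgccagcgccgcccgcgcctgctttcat
Tgfb3: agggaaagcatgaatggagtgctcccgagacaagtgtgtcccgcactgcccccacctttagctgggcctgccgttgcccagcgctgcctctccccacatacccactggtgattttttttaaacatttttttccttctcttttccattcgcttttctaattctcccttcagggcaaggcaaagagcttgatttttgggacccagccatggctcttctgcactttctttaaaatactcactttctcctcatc
Ltbp2: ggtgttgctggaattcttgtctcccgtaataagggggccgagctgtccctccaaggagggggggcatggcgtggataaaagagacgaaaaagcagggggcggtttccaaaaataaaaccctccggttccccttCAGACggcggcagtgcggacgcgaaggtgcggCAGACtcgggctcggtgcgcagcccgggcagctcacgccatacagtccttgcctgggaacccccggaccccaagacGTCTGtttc
Ctgf held 1 SMAD box, beginning 174 bases before the start, 3 TEAD motifs at 166, 101 and 92 bases and a TATA motif at 31 bases. Ltbp2 held 3 SMAD boxes, at 117, 85 and 9 bases before the start. Tgfbi, Tgfb3 and the other 6 genes held none of the 5 motifs in this window. No matches overlapped. Among the 250-base promoters of 27457 genes, 42.8% held a SMAD box, 0.186% the palindrome, 6.36% the AP-1 motif, 11.8% the TEAD motif and 13.1% the TATA motif. A match is a string of letters and no evidence of binding.

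The rest of the pathway was read from a list of 73 further genes by role, of which 64 passed the filter. With IL-1β 49 of the 64 passed, 26 higher and 23 lower (median log2 change -0.02), where 46.7% of all tested genes passed. With co-culture against IL-1β 35 passed, 14 higher and 21 lower (median 0.0078), against 22.0% of all tested genes. With co-culture against control 43 passed, 23 higher and 20 lower (median -0.01), against 33.9%. Across the alternatives the number called was 47 to 52, 28 to 35 and 38 to 46 in the 3 comparisons. Without the filter more of the 73 genes were tested, and with a mean of at least 5 FPKM fewer were. Members of both directions were present in each comparison.

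**Figure D4:**
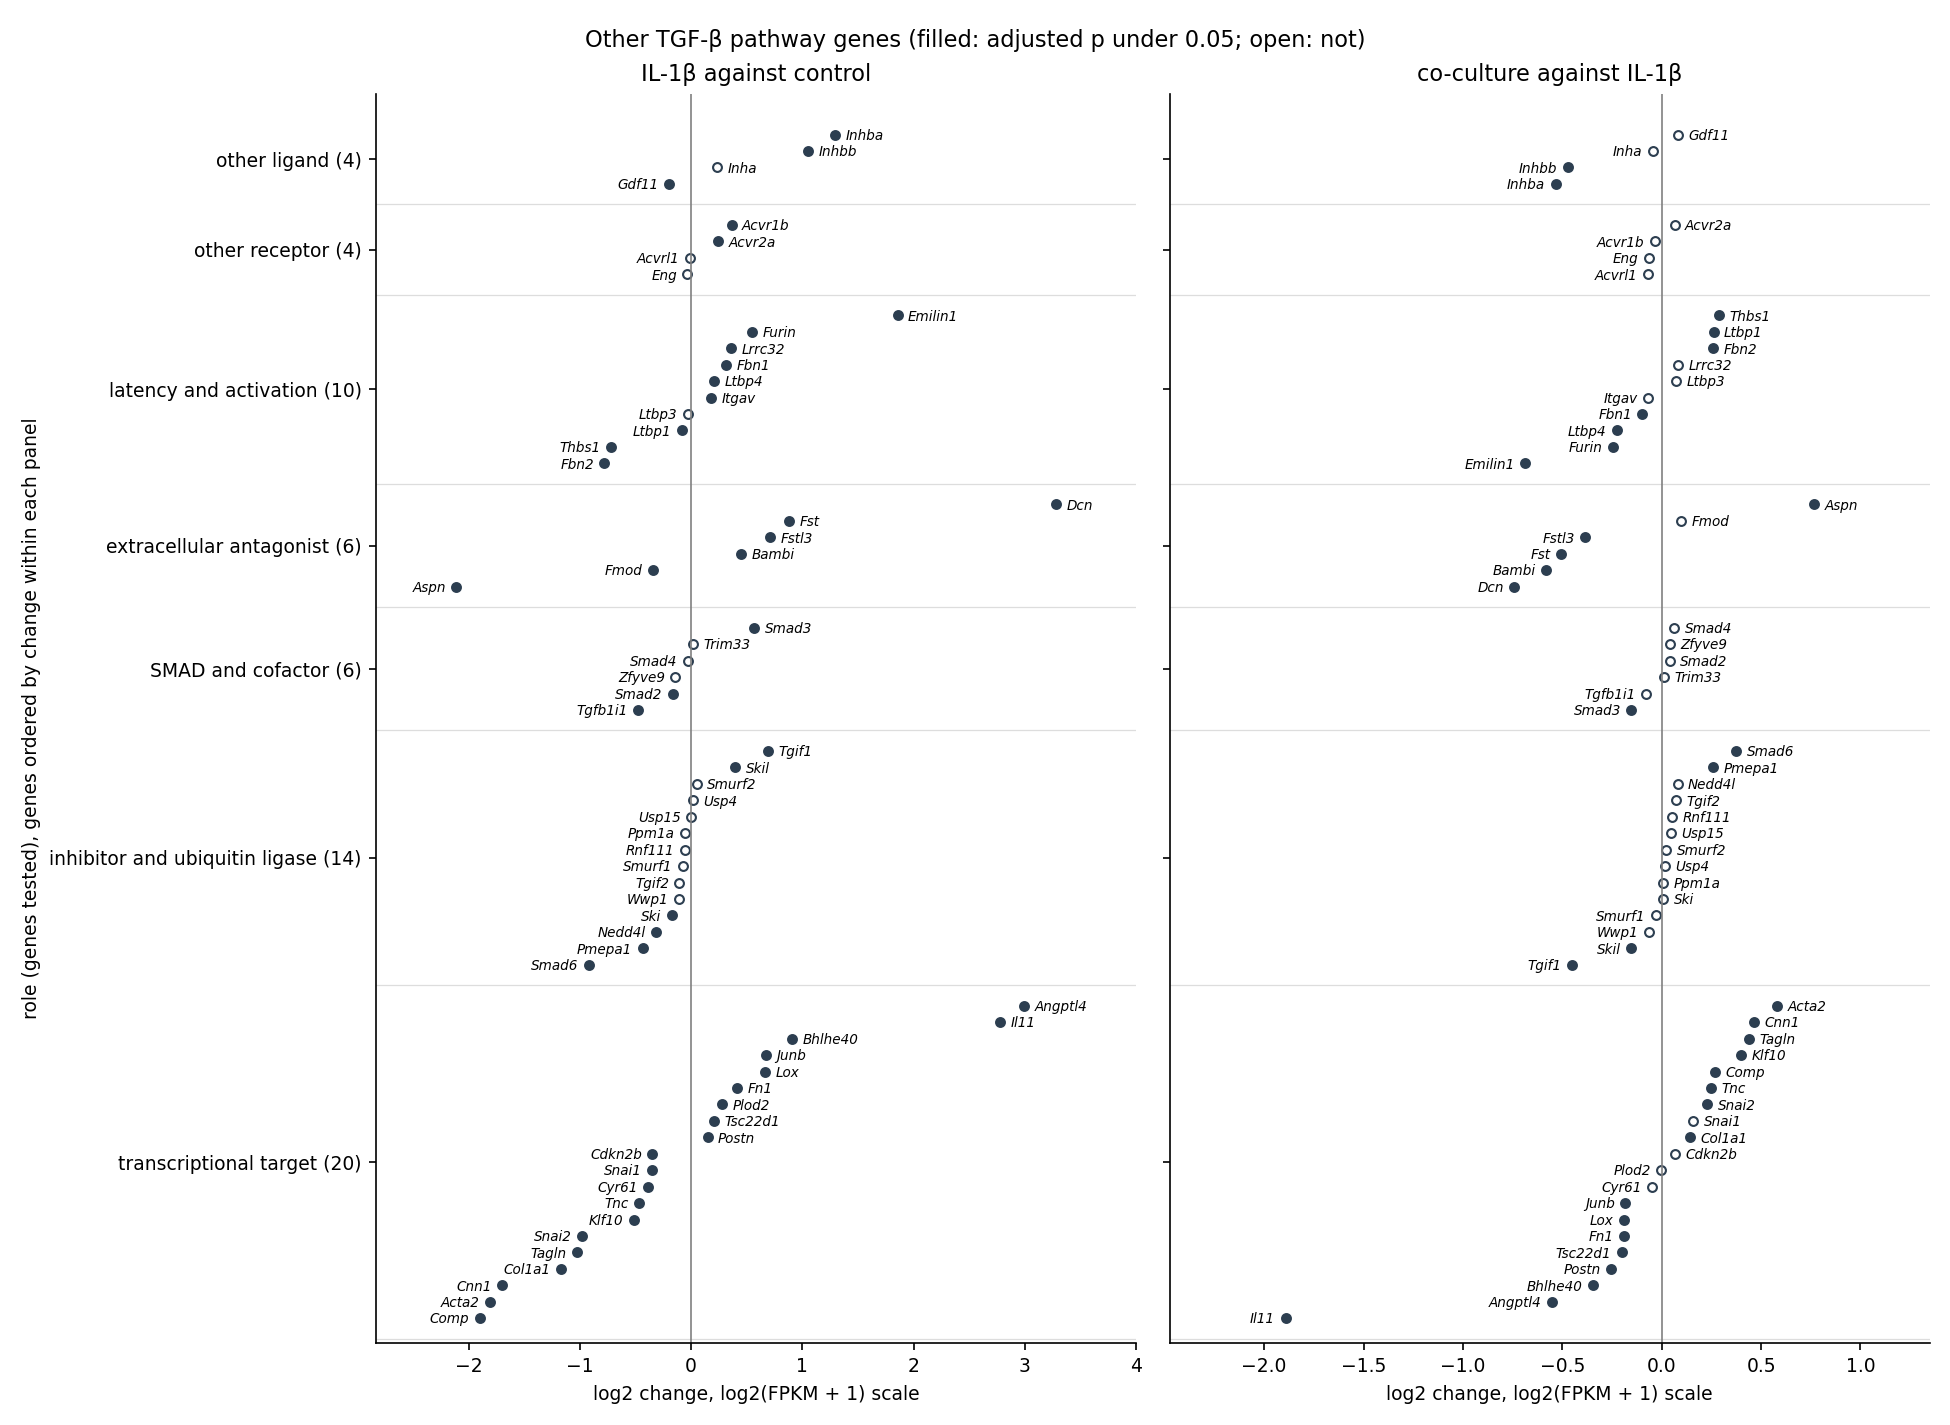
Log2 change on the log2(FPKM + 1) scale of 64 other TGF-β pathway genes by role, with IL-1β against control on the left and co-culture against IL-1β on the right. Each point is a gene, filled where its adjusted p was under 0.05, and genes are ordered by change within each panel. Dcn, Angptl4 and Il11 lie farthest right with IL-1β, and Il11 lies farthest left with co-culture.

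Among the other ligands of the branch, the activin subunit genes rose with IL-1β. Inhba, which encodes the subunit of activin A, stood at 25.5 ± 0.882 FPKM in control, 64.0 ± 1.58 with IL-1β and 43.9 ± 2.21 in co-culture. Both changes passed (log2 change 1.29, adjusted p = 4.75e-09, and -0.53, adjusted p = 1.98e-05). Inhbb was low, at 1.22 ± 0.278, 3.60 ± 0.305 and 2.31 ± 0.113, and passed in the same directions (1.05 and -0.47). Gdf11, a ligand close to myostatin, fell from 5.24 ± 0.226 to 4.43 ± 0.263 with IL-1β (adjusted p = 0.0157), a call that ended without control replicate 2 or without IL-1β replicate 3 (adjusted p = 0.0572 and 0.0583). Inha, the inhibin α subunit gene, stood at 0.893 ± 0.312, 1.21 ± 0.123 and 1.14 ± 0.127 in the 3 groups and did not pass.

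Of 4 other receptors tested, the activin receptors Acvr1b and Acvr2a rose with IL-1β (log2 change 0.36, adjusted p = 0.0019, and 0.24, adjusted p = 0.00477). These 2 of 4 are a share near the 46.7% of all tested genes that passed. Acvr1b stood at 4.44 ± 0.245 and 6.0 ± 0.457 FPKM and Acvr2a at 9.83 ± 0.467 and 11.8 ± 0.289. Acvrl1, which encodes the alternative type I receptor ALK1 that signals through SMAD1 and SMAD5, stood at 7.01 ± 0.16, 6.94 ± 0.2 and 6.57 ± 0.481 in control, IL-1β and co-culture and did not pass. None of the 4 passed with co-culture against IL-1β in limma, where 22.0% of all tested genes did. Nor did any of the 4 reach an unadjusted p of 0.05.

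Of 10 latency and activation genes, 6 rose and 3 fell with IL-1β (46.7% of all tested genes passed), and 3 rose and 4 fell with co-culture (22.0% passed). Emilin1, whose product limits processing of the TGF-β precursor, stood at 56.6 ± 0.603 FPKM in control, 207 ± 5.30 with IL-1β and 128 ± 3.39 in co-culture (log2 change 1.86, adjusted p = 3.51e-11, and -0.69, adjusted p = 4.62e-07). Furin, a convertase that cuts the precursor, rose from 27.9 ± 0.705 to 41.3 ± 1.04 with IL-1β and fell to 34.6 ± 1.19 with co-culture (0.55 and -0.25). Thrombospondin-1 (Thbs1), which can release the ligand from its propeptide, went the other way, from 1243 ± 46.4 to 754 ± 4.79 and then 921 ± 21.6 (-0.72, adjusted p = 3.78e-08, and 0.29, adjusted p = 0.00015). Ltbp1, a binding protein that does hold latent TGF-β, stood at 73.4 ± 0.788, 69.3 ± 0.514 and 83.2 ± 0.769. It rose above both other groups in co-culture (0.26 against IL-1β, adjusted p = 5.44e-05, and 0.18 against control, adjusted p = 0.000335). Its small fall with IL-1β (-0.08, adjusted p = 0.0188) ended without control replicate 1, control replicate 3 or IL-1β replicate 2 (adjusted p = 0.0542 to 0.0647).

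All 6 secreted or membrane-bound antagonists passed with IL-1β, 4 higher and 2 lower, against 46.7% of all tested genes. With co-culture 4 fell and 1 rose, against 22.0%. Decorin (Dcn), a proteoglycan that binds TGF-β and is also on the dermal fibroblast marker list, stood at 32.4 ± 1.75 FPKM in control, 324 ± 10.8 with IL-1β and 194 ± 9.49 in co-culture (log2 change 3.28, adjusted p = 2.3e-11, and -0.74, adjusted p = 4.7e-06). Follistatin (Fst), which sequesters activins, rose from 85.1 ± 1.13 to 157 ± 1.98 and fell to 110.4 ± 5.52 (0.88 and -0.51). Asporin (Aspn), a small proteoglycan that binds TGF-β in cartilage, fell from 14.6 ± 0.71 to 2.62 ± 0.275 with IL-1β and rose to 5.17 ± 0.57 with co-culture (-2.11, adjusted p = 1.59e-08, and 0.77, adjusted p = 0.000137).

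Of 6 SMADs and cofactors, 1 rose and 2 fell with IL-1β, a share near the 46.7% of all tested genes that passed. With co-culture 1 of the 6 fell, a share near the 22.0% of all tested genes that passed. Smad3, a receptor-activated SMAD, rose from 14.0 ± 0.552 to 21.2 ± 0.422 FPKM with IL-1β (log2 change 0.57, adjusted p = 2.45e-06), while Smad2 fell from 33.1 ± 0.818 to 29.4 ± 1.18 (-0.16, adjusted p = 0.0125). Tgfb1i1, a focal adhesion protein and nuclear coactivator also called Hic-5, fell from 87.5 ± 1.98 to 62.7 ± 1.57 (-0.47, adjusted p = 3.05e-05). In co-culture Smad3 stood at 18.9 ± 0.696 (-0.15 against IL-1β, adjusted p = 0.0283). That call ended in 6 of 15 alternatives, among them without IL-1β replicate 1 or 2 and without co-culture replicate 1 or 3 (adjusted p = 0.0513 to 0.0879).

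Of 14 inhibitors, ubiquitin ligases and related regulators, 2 rose and 4 fell with IL-1β, a share near the 46.7% of all tested genes. With co-culture 2 rose and 2 fell, where 22.0% of all tested genes passed. Of those rises, that of Pmepa1 (0.26, adjusted p = 0.0374), ended in 10 of 15 alternatives, among them without IL-1β replicate 1 or 3 and without co-culture replicate 1 or 3 (adjusted p = 0.0521 to 0.115). Smad6, the other inhibitory SMAD, fell from 30.2 ± 1.61 to 15.5 ± 0.967 FPKM with IL-1β and rose to 20.4 ± 0.422 with co-culture (log2 change -0.92, adjusted p = 3.11e-07, and 0.38, adjusted p = 0.000732). Tgif1, a corepressor of SMADs, rose from 36.2 ± 1.15 to 58.9 ± 0.851 and fell to 42.9 ± 2.00 (0.69 and -0.45). Skil, which encodes the corepressor SnoN, rose from 14.3 ± 0.252 to 19.2 ± 0.582 (0.40, adjusted p = 4.99e-05). Its fall to 17.2 ± 0.917 with co-culture (adjusted p = 0.0356) ended in 6 of 15 alternatives, among them without IL-1β replicate 1 or 3 and without co-culture replicate 1 or 3 (adjusted p = 0.0699 to 0.11).

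All 20 tested transcriptional targets passed with IL-1β, 9 higher and 11 lower, where 46.7% of all tested genes passed. With co-culture 8 rose and 8 fell, against 22.0%. Among the rises, that of the collagen gene Col1a1 (0.14, adjusted p = 0.0264) ended in 8 of 15 alternatives, among them without IL-1β replicate 1 or 2 and without co-culture replicate 1 or 2 (adjusted p = 0.053 to 0.0785). Tagln, which encodes the actin-binding protein SM22, stood at 1372 ± 24.7 FPKM in control, 674 ± 20.3 with IL-1β and 914 ± 35.0 in co-culture (log2 change -1.03, adjusted p = 5.46e-09, and 0.44, adjusted p = 1.73e-05). Smooth muscle actin (Acta2) changed by -1.81 and 0.58 and calponin (Cnn1) by -1.70 and 0.46, with all 4 calls kept in every alternative. The cartilage matrix gene Comp, also on the chondrocyte marker list, fell from 61.9 ± 0.97 to 15.9 ± 0.55 and rose to 19.3 ± 1.10 (-1.90 and 0.27).

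Other targets went up with IL-1β and down with co-culture. The cytokine gene Il11 stood at 3.43 ± 0.246 FPKM in control, 29.3 ± 2.07 with IL-1β and 7.17 ± 0.474 in co-culture (log2 change 2.78, adjusted p = 5.14e-10, and -1.89, adjusted p = 2.31e-07). Angptl4, an inhibitor of lipoprotein lipase, rose from 40.2 ± 1.44 to 327 ± 3.42 and fell to 223 ± 13.4 (2.99 and -0.55). The collagen-crosslinking enzyme gene Lox changed by 0.67 and -0.19 and fibronectin (Fn1) by 0.41 and -0.19.

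The genes whose levels ran most like each of the 10 over the 9 libraries were found by Pearson's r of log2(FPKM + 1) among 8227 tested genes, leaving out the 10 themselves, genes with a mean under 5 FPKM and placeholder symbols (LOC or RGD with digits). For Tgfb3 they were Col5a2 (r = 0.999), a fibrillar collagen chain, and Acan (0.999), the core protein of the main cartilage proteoglycan. For Ctgf they were the amino acid transporter gene Slc38a4 (0.998) and Acta2 (0.998), for Tgfbi Susd5 (0.999) and the binding protein gene Igfbp4 (0.999) and for Tgfb2 Fam20c (0.992) and Fam107b (0.989). For Ltbp2 they were Efna5 (0.997) and Plpp3 (0.997), for Tgfbr2 Ak4 (0.995) and Ripk2 (0.995) and for Tgfbr3 Hdhd2 (0.975) and Heatr3 (0.966). The nearest to the genes that did not pass were less like them, at 0.926 and 0.925 for Tgfb1 (Zdhhc4 and Rnf130), 0.932 and 0.929 for Tgfbr1 (Smchd1 and Nmd3) and 0.960 and 0.923 for Smad7 (Eogt and Cobll1). Such likeness was common for some of the 10, since 470 genes exceeded an r of 0.95 with Tgfb3, 434 with Ctgf and 554 with Ltbp2. For Tgfbr3 the number was 13, for Smad7 1 and for Tgfb1 and Tgfbr1 0. The libraries fall into 3 groups, so r mainly compares group means where these differ, and no test is attached. For Tgfb1, Tgfbr1 and Smad7, whose group means were close, r also follows differences between single libraries.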

How the data were processed

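Poly(A) RNA of 9 libraries was captured with oligo(dT) beads, fragmented and copied with random primers, per the labels' protocols. Whether strand was kept is not stated. The authors deposited 1 table of FPKM values for 17588 genes, per the file headers, with replicates kept apart. Aligner, counter and annotation: not given in the sources used here. GRCm38, which is a build of the mouse genome, is named in the submitters' processing notes for these rat samples. A RefSeq table of rat GRCr8, the build of the promoters shown, holds 16396 (93.2%) of the identifiers. FPKM carries no read depth, so no count test was run.

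A gene was tested if 3 or more libraries reached 1 FPKM, as 11732 did. Tests used log2(FPKM + 1) without rescaling. On this scale the change of low genes is understated, whereas folds beside FPKM are ratios of group means. The model was limma 3.58.1 (R 4.3.3, trend option on), 1 fit over the 9 libraries. Its two-sided p-values were adjusted by Benjamini-Hochberg per comparison, and a gene was called under 0.05. The fit was tested on simulated data. Groups came from the sample titles. The same replicate numbers occur in each group, but libraries with the same number did not deviate together, so no block was used.

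The 10 genes and the pathway and marker lists were chosen with earlier results of these data known, and 1 listed target gene is not reported here. Named from the pathway lists were up to 3 called genes per role with the smallest p in IL-1β against control and in co-culture against IL-1β, and for each of the 10 genes the 2 most similar genes. Acta2, Cnn1, Lox, Fn1, Col1a1, Pmepa1, Acvrl1 and Inha, and the low genes given at the end, were named after their values were seen. Each alternative (pseudocount of 0.1, no filter, mean FPKM of at least 5, 3 scalings, no trend, only the libraries compared, replicate block, each library of the 2 groups compared left out) was applied to each comparison. Figures were drawn with matplotlib 3.10.9.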

Additional observations from a re-analysis of the deposited data

How the results depend on the processing

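The number of the 10 genes called was 7 under every alternative with IL-1β against control, 5 to 6 with co-culture against IL-1β and 6 to 7 with co-culture against control. Among the named genes, directions turned only for changes that had not passed. With libraries rescaled to a common sum the log2 change of Tgfbr1 and Smad7 with IL-1β became -0.0466 and -0.0337, and against control in co-culture -0.0105 and -0.0253. With quantile normalization Tgfbr1 became -0.0328 and Smad7 -0.0222 with IL-1β, and Smad7 -0.00191 with co-culture against IL-1β and -0.0241 against control. With median-of-ratios scaling Tgfbr1 became -0.0107 with IL-1β, and Smad7 -0.00821 and -0.00523 in co-culture against IL-1β and control. Leaving out each library gave -0.0143 to 0.0303 for Tgfbr1, -0.00625 to 0.0568 for Smad7 and -0.0272 to 0.00827 for Acvrl1 with IL-1β, -0.0166 to 0.0208 for Smad7 and -0.0834 to 0.0194 for Acvr1b with co-culture against IL-1β, and -0.0767 to 0.0134 for Tgfb1 with co-culture against control. The cause was not tested. With the replicate block 7, 5 and 7 of the 10 genes passed in the 3 comparisons, and 5201, 2266 and 3681 of all tested genes against 5479, 2581 and 3981 without it. Deviations from group means correlated at -0.0907 to 0.0855 between libraries with the same number and -0.0768 to 0.0887 between others. Among named pathway genes the block ended the calls of Smad3 (adjusted p = 0.0582), Skil (adjusted p = 0.0729), Pmepa1 (adjusted p = 0.0734) and Col1a1 (adjusted p = 0.059) in co-culture against IL-1β. No scaling moved the median of all tested genes by over 0.1 log2. Depth in reads is unknown, so counting error cannot be given. With 3 libraries a group, single small changes rest in part on the spread shared across genes.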

Other observations

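The 9 other pathway genes of the list did not pass the filter on low values. Among them were Itgb8 and Itgb6, the genes of integrin β subunits that take part in activating latent TGF-β. Itgb8 averaged 0.36 ± 0.125 FPKM in control, 0.867 ± 0.0764 with IL-1β and 0.753 ± 0.108 in co-culture, and Itgb6 averaged 0.19 ± 0.0624, 0.487 ± 0.085 and 0.457 ± 0.12. Every IL-1β library was above every control library for both genes, at levels where FPKM is least precise. Neither gene was tested in the main fit, and the share of all low genes without overlap was not counted. The oxidase gene Nox4, a TGF-β target in fibroblasts, averaged 0.72 ± 0.05, 0.39 ± 0.0608 and 0.487 ± 0.168. Acvr2b averaged at most 0.217 FPKM and Nrros, which tethers latent TGF-β on myeloid cells, at most 0.18 in any group. Foxh1 and Mstn averaged at most 0.0767 and 0.0533, and Acvr1c and Nodal were listed at 0 in most libraries.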
